A study of Mus musculus with 2 samples.

Results

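The forkhead (Fox) genes encode a family of transcription factors that share a winged-helix domain. Members were all protein-coding genes whose GENCODE symbol is Fox, a letter and a number, from Foxa1 to Foxs1. There were 44 such genes among the 55401 in the tables, and 25 of them reached 1 FPKM (counted fragments scaled to exon length and to the library's total) in at least 1 of the 2 libraries. RNA of mouse pituitaries at embryonic day E12.5 had been sequenced from Dyrk2-KO embryos, labelled Dyrk2-/-, and from WT embryos. Dyrk2 encodes a protein kinase. Each genotype had 1 library, so no difference below could be set against replicate spread or tested. The labels do not say how the knockout was made or how many embryos, of which sex, were pooled.

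The tables correspond to 20115825 counted fragments in the Dyrk2-KO library and 20044960 in the WT library. Dyrk2 itself measured 1.93 FPKM in the Dyrk2-KO library and 11.5 FPKM in the WT library, 5.97-fold lower. Transcripts of both sexes were present in both libraries in unequal proportions: the female-specific RNA Xist measured 14.8 FPKM in the Dyrk2-KO library and 74.98 FPKM in the WT library. The Y-linked gene Ddx3y measured 14.9 FPKM in the Dyrk2-KO library and 5.83 FPKM in the WT library. Pituitary progenitor markers were abundant in both libraries, with the pouch factor Pitx1 at 227.1 FPKM in the Dyrk2-KO library and 250.4 FPKM in the WT library. All 95% intervals below cover counting error only.

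Forkhead factors bind DNA through this domain, and several of them can open closed chromatin. Many are marks of a tissue layer: the Foxc, Foxd, Foxf and Foxl1 genes are active in mesenchyme and the Foxa genes in endoderm. Others act in most cells, such as the Foxo genes, which respond to insulin and growth factor signals, and Foxm1, which drives genes of mitosis. In the pituitary Foxl2 marks the precursors of gonadotrophs and thyrotrophs, and in mice Foxd1 is active in the mesenchyme next to the gland rather than in the hormone cells. Foxf1, Foxf2 and Foxl1 are induced by Hedgehog ligands in the mesenchyme of the gut, and Foxf2 also serves pericytes of brain vessels.

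Most members with roles in mesenchyme and vessels were lower in the Dyrk2-KO library, and every other member above the filter lay within 1.5-fold. Roles were assigned with earlier results of these data known, so the split by role is a description and no test. Foxl1 was 11.04-fold lower (95% interval 7.97 to 15.5), Foxf2 5.51-fold lower (4.58 to 6.70), Foxd1 3.80-fold lower (3.39 to 4.27) and Foxc2 2.58-fold lower (2.19 to 3.04). The widely expressed members Foxp4, Foxk2 and Foxo4 were the most abundant in both libraries and differed by at most 1.11-fold. In summed level the family measured 210.5 FPKM in the Dyrk2-KO library and 247.5 FPKM in the WT library. The 9 mesenchymal and vascular members (Foxc1, Foxc2, Foxd1, Foxd2, Foxf1, Foxf2, Foxl1, Foxq1 and Foxs1) made up 23.4 FPKM in the Dyrk2-KO library and 63.8 FPKM in the WT library, while the other 35 summed to 187.2 FPKM in the Dyrk2-KO library and 183.7 FPKM in the WT library.

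**Figure D1:**
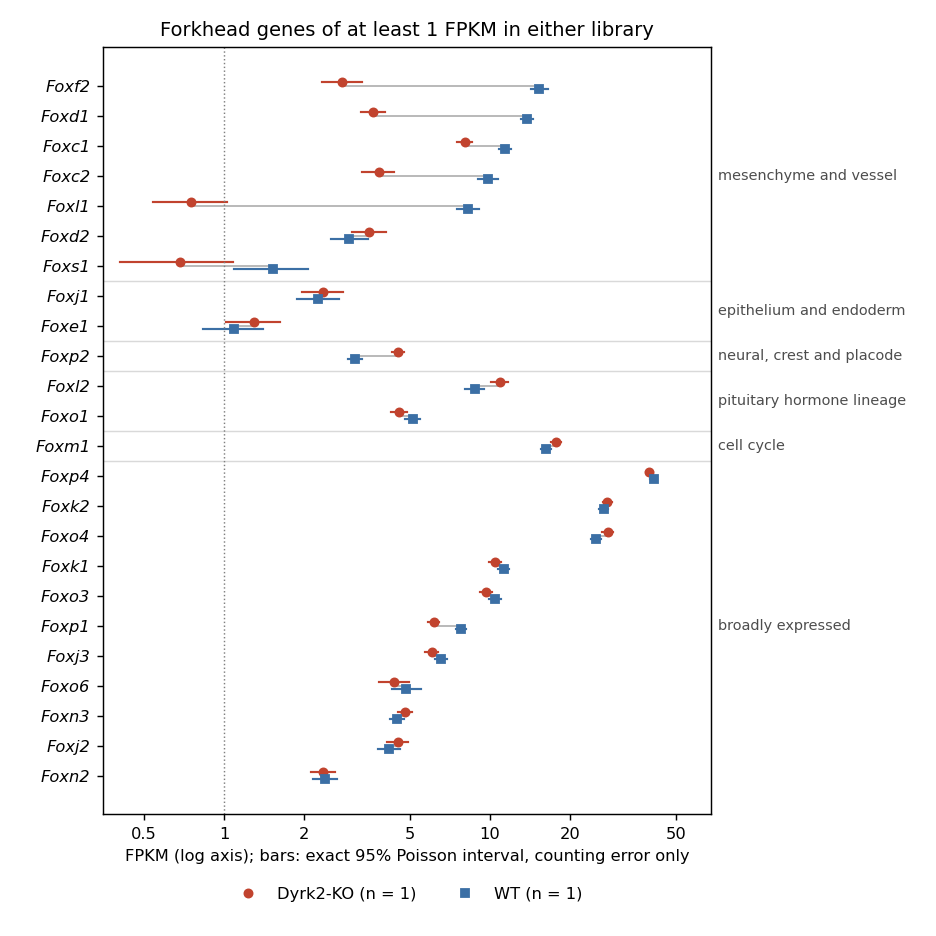
FPKM on a log axis of 24 of the 25 forkhead genes of at least 1 FPKM in either library, grouped by role, with 1 Dyrk2-KO library (circles) and 1 WT library (squares) and exact 95% Poisson intervals as bars. Foxf2, Foxd1, Foxc2 and Foxl1 show the widest gaps, and most widely expressed members have points that nearly coincide.

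Of the 44 members, 5 were listed at 0 in both libraries (Foxb2, Foxd4, Foxe3, Foxi2 and Foxn1), and 14 others lay above 0 in at least 1 library but below the filter. Highest among those below the filter were Foxq1 at 0.09 FPKM in the Dyrk2-KO library and 0.48 FPKM in the WT library, and Foxa1 at 0.42 FPKM in the Dyrk2-KO library and 0.19 FPKM in the WT library. Just inside it lay Foxe1 at 1.29 FPKM in the Dyrk2-KO library and 1.09 FPKM in the WT library. A count of 0 allows, at 3 fragments, between 0.0309 and 0.173 FPKM for the members below the filter, depending on their length. Of those above the filter, 23 reached 1 FPKM in both libraries, and Foxl1 and Foxs1 passed through the WT library alone, so they were bound to differ.

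Fold thresholds were applied to the log2 ratio of Dyrk2-KO over WT after 0.5 FPKM was added to both values. By this measure 5 of the 25 members above the filter were at least 1.5-fold lower (Foxl1, Foxf2, Foxd1, Foxc2 and Foxs1), where 4.56% of all 14000 genes of at least 1 FPKM and 2.95% of the 12105 protein-coding ones were. At 2-fold or more 4 were lower, against 1.89% of all genes and 1.03% of protein-coding ones. No member was 1.5-fold higher, against 2.06% of all genes and 1.08% of protein-coding ones, and so none was 2-fold higher, against 0.857% and 0.38%. Without the filter 6 of the 44 were at least 1.5-fold lower, the sixth being Foxq1, against 2.15% of all 55401 genes, many of them at or near 0. Among the 23 members of at least 1 FPKM in both libraries 3 were, against 2.49% of the 13049 genes that reached it in both. The median log2 ratio was -0.06 over the 25 members and -0.02 over all 14000 genes. Their middle 50% spanned -0.31 to 0.12, against -0.15 to 0.10 for all genes. Members therefore lay near the middle of all genes as a group, with a tail on the low side.

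**Figure D2:**
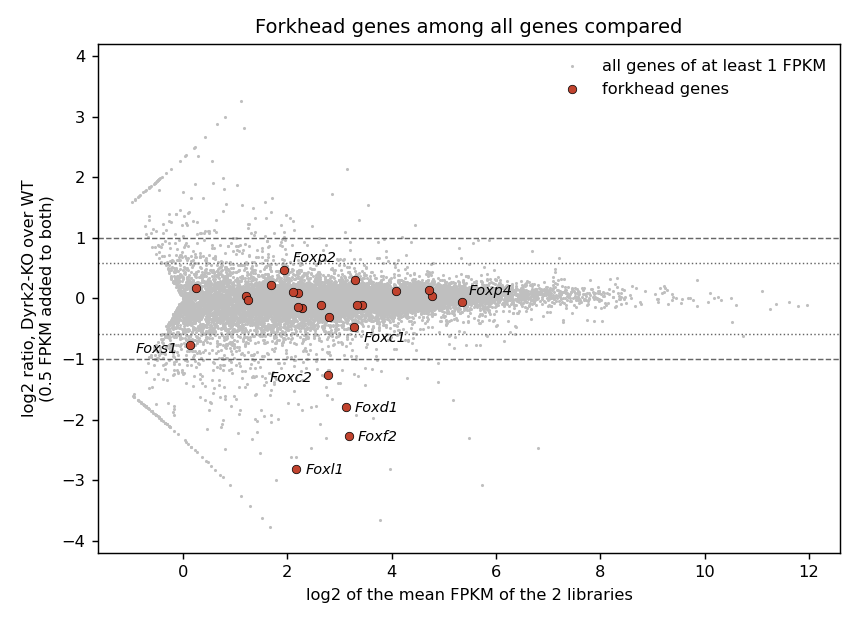
Log2 ratio of Dyrk2-KO over WT, with 0.5 FPKM added to both, against the log2 mean FPKM of the 2 libraries, for all 14000 genes of at least 1 FPKM (grey) and 24 of the 25 forkhead genes among them (red). Dotted lines mark 1.5-fold and dashed lines 2-fold; Foxl1, Foxf2, Foxd1 and Foxc2 lie below the lower dashed line.

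Foxl1 (ENSMUSG00000097084, chr8:121127940-121130644, plus strand, GRCm38) controls signals from gut mesenchyme to epithelium. It measured 0.75 FPKM (0.541 to 1.02, from 41 fragments) in the Dyrk2-KO library and 8.28 FPKM (7.53 to 9.08, from 449 fragments) in the WT library. Its log2 ratio of -2.81 ranked 13 from the lowest among the 14000 genes. Foxf2 (ENSMUSG00000038402, chr13:31625816-31631403, plus strand), needed for palate and vessel mesenchyme, measured 2.78 FPKM (2.32 to 3.29) in the Dyrk2-KO library and 15.3 FPKM (14.2 to 16.5) in the WT library. It ranked 34 from the lowest. Its close relative Foxf1, a regulator of lung and gut mesenchyme, was scarce, at 0.08 FPKM (4 fragments) in the Dyrk2-KO library and 0.27 FPKM (13 fragments) in the WT library. Foxf2 thus supplied nearly all Foxf transcript in both libraries.

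Foxd1 (ENSMUSG00000078302, chr13:98354242-98359305, plus strand), a factor of kidney stroma and of the mesenchyme near the pituitary, measured 3.62 FPKM (3.26 to 4.01) in the Dyrk2-KO library and 13.8 FPKM (13.1 to 14.5) in the WT library. Foxd2, a relative that is active in head and kidney mesenchyme, did not share this difference, at 3.51 FPKM (3.02 to 4.06) in the Dyrk2-KO library and 2.96 FPKM (2.51 to 3.47) in the WT library. The interval of its ratio, 0.950 to 1.48, included 1. In the WT library Foxd1 was the more abundant of the pair by a wide margin, and in the Dyrk2-KO library both were at about the same level per length. Foxd3, a neural crest gene, and Foxd4 stayed at 0.09 FPKM or less in both libraries.

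Foxc1 and Foxc2 act in head mesenchyme, the meninges and developing vessels. Foxc2 (chr8:121116171-121118895, plus strand) measured 3.81 FPKM (3.31 to 4.37) in the Dyrk2-KO library and 9.83 FPKM (9.02 to 10.7) in the WT library. Foxc1 (chr13:31806633-31812476, plus strand) measured 8.05 FPKM (7.54 to 8.58) in the Dyrk2-KO library and 11.4 FPKM (10.8 to 12.04) in the WT library, 1.42-fold lower (1.30 to 1.54), which did not reach the 1.5-fold threshold. The interval of the Foxc2 ratio, 0.329 to 0.456, lay wholly below that of Foxc1, 0.648 to 0.767. Foxs1, found in pericytes and neural crest derivatives, measured 0.68 FPKM (0.405 to 1.08, from 18 fragments) in the Dyrk2-KO library and 1.52 FPKM (1.09 to 2.07, from 40 fragments) in the WT library. No other member above the filter rested on so few fragments in either library.

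The 300-base promoter windows of the mesenchymal members that RefSeq's table for GRCm38.p6 holds are shown. They set genes that were lower (Foxf2, Foxd1 and, by less, Foxc1) beside one that was not (Foxd2). No window was available for Foxl1, the member with the lowest ratio above the filter, or for Foxc2, Foxs1, Foxf1 and Foxq1. Each runs 5′ to 3′ on the gene's own strand, from 250 bases before to 50 bases after the RefSeq start. Capitals mark exact matches to the GC box GGGCGG, the CCAAT box CCAAT and their reverse complements. The windows are chr13:31625566-31625865 (plus strand) for Foxf2, chr13:98353995-98354294 (plus strand) for Foxd1, chr13:31806396-31806695 (plus strand) for Foxc1 and chr4:114908849-114909148 (minus strand) for Foxd2.
Foxf2: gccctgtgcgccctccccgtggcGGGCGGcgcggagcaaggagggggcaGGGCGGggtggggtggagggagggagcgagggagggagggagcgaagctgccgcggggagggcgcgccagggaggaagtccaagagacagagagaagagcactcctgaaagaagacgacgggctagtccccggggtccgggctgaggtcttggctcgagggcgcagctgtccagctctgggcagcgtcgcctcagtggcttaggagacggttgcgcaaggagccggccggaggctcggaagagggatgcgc
Foxd1: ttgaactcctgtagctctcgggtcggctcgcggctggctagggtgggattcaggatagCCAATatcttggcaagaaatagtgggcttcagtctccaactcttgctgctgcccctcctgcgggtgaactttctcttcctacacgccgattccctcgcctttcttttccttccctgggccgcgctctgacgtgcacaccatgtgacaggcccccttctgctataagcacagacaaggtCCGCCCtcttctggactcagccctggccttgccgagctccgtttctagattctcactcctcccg
Foxc1: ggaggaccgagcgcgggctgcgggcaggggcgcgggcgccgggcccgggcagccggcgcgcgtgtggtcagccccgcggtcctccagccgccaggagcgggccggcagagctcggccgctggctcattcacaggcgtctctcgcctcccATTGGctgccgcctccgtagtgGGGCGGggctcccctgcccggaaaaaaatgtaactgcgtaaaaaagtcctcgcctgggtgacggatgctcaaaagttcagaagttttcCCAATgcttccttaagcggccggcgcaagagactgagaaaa
Foxd2: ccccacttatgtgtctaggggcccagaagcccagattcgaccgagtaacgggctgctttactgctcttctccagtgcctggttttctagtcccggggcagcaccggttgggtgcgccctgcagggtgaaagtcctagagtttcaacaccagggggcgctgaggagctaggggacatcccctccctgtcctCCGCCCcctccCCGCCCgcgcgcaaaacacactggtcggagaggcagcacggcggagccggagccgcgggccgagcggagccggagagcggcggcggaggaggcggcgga

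Motifs searched on both strands were the GC box, the CCAAT box, the TATA box TATAAA, the forkhead core GTAAACA and the Gli consensus GACCACCCA, through which Hedgehog signals act; none overlaps another in these windows. The GC box occurred in all 4 windows, once in Foxd1 and Foxc1 and at 2 places in Foxf2 and in Foxd2. It occurred in 24 of the 33 windows of forkhead genes and in 35.7% of all 32851 windows of the same length. A CCAAT box occurred in Foxd1 and Foxc1, in 15 of the 33 windows of forkhead genes and in 37.4% of all windows. The other motifs had no match in the 4 windows, and the Gli consensus had none in any of the 33 windows of 28 forkhead genes, where 0.253% of all windows hold it. Foxf2, which was lower, and Foxd2, which was not, both carried 2 GC boxes and no CCAAT box. G and C made up 71.3% of the Foxf2 window, 57.7% of Foxd1, 67.3% of Foxc1 and 67.7% of Foxd2. The median was 62.7% over the 33 windows of forkhead genes and 52.7% over all windows.

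Several of the lower members are neighbours in the genome, a property that played no part in choosing them. Foxf1, Foxc2 and Foxl1 lie together on chromosome 8, with 28.0 kb between Foxf1 and Foxc2 and 9.04 kb between Foxc2 and Foxl1. Foxq1 and Foxf2 lie 64.8 kb apart on chromosome 13, and Foxc1 follows 175.2 kb beyond Foxf2. All 6 of these genes had lower values in the Dyrk2-KO library. Foxq1 was 5.33-fold lower (2.54 to 12.2) and Foxf1 3.38-fold lower (1.01 to 13.7), both from few fragments and below the filter. The Foxq1 value is uncertain for a reason given below, and Foxc1 lies beyond the 150 kb used for neighbours. Of the 25 members above the filter, 14 had log2 ratios below 0 and 11 above. The median over all 14000 genes was -0.02. Whether neighbours were lower more often than other genes was not tested. The interposed gene Mthfsd, which lies between Foxf1 and Foxc2 and is no forkhead gene, measured 3.24 FPKM in the Dyrk2-KO library and 3.99 FPKM in the WT library, 1.23-fold lower (1.11 to 1.36). The long non-coding RNA Fendrr, next to Foxf1, was at 0 in the Dyrk2-KO library and at 0.05 FPKM (3 fragments) in the WT library. Foxd1 lies elsewhere on chromosome 13, so membership of a cluster was not shared by all lower members. Foxd2 and the silent Foxe3 form another pair, on chromosome 4, with 16.3 kb between them.

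**Figure D3:**
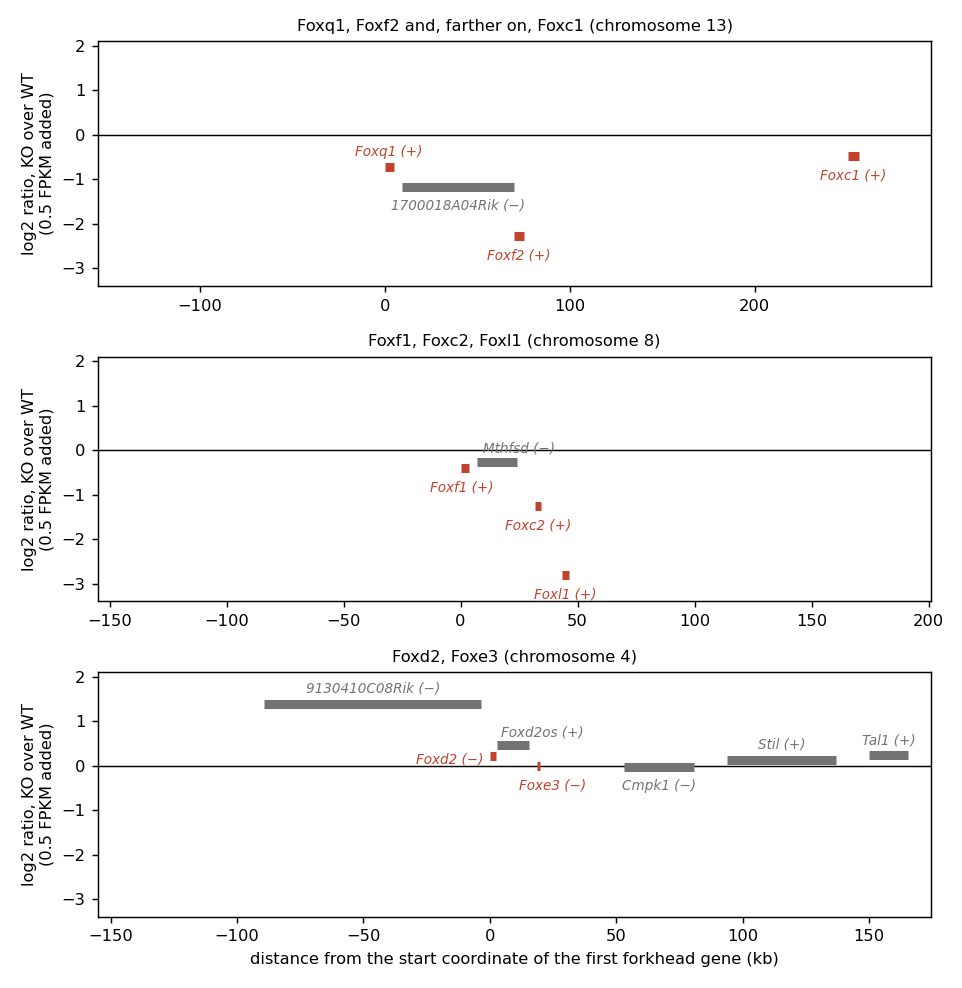
Log2 ratio of Dyrk2-KO over WT, with 0.5 FPKM added to both, of the forkhead genes (red) and other annotated genes (grey) at their distance in kb from the start of the first forkhead gene; bar lengths give gene lengths and signs the strand. Other genes are drawn at 0.5 FPKM or more in either library and at least 200 exon bases. In the upper panels every forkhead gene lies below 0, and in the lower panel Foxd2 lies slightly above it.

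Some non-coding transcripts that start within 1 kb of a forkhead gene and run the other way had values that moved with their partner. The lincRNA 1700018A04Rik starts 24 bases from Foxf2, inside the Foxf2 promoter window shown above, and measured 0.08 FPKM (7 fragments) in the Dyrk2-KO library and 0.80 FPKM (68 fragments) in the WT library. It was 10-fold lower (4.48 to 25.2), with an interval that overlaps that of Foxf2. Foxl2os starts 11 bases from Foxl2 and measured 5.88 FPKM in the Dyrk2-KO library and 4.57 FPKM in the WT library, 1.29-fold higher (1.10 to 1.498), where Foxl2 was 1.24-fold higher. Foxd2os starts 384 bases from Foxd2 and measured 2.20 FPKM in the Dyrk2-KO library and 1.47 FPKM in the WT library, 1.497-fold higher (1.15 to 1.97), while the interval of Foxd2 included 1. Further from Foxd2, the antisense RNA 9130410C08Rik measured 1.42 FPKM (31 fragments) in the Dyrk2-KO library and 0.23 FPKM (5 fragments) in the WT library. Rhno1, a protein-coding gene whose start lies 56 bases from that of Foxm1, measured 11.04 FPKM in the Dyrk2-KO library and 11.02 FPKM in the WT library. Gm26839, next to Foxn3, went against its partner on 3 fragments in the Dyrk2-KO library and 7 in the WT library, Gm26826, next to Foxj2, was equal at 8 fragments in each, and 2 others had at most 1 fragment. The libraries were stranded, but the labels do not say whether the counting used strand; Foxl2 and Foxl2os share only 12 exonic bases and Foxf2 and 1700018A04Rik share none. Foxq1 shares 66.1% of its exonic bases with A530084C06Rik, a gene on the other strand, so reads of this pair may not have been told apart and its value is uncertain.

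Factors of the pituitary itself and of dividing cells moved little. Foxl2 (chr9:98955288-98958543, plus strand) measured 10.9 FPKM (10.1 to 11.7) in the Dyrk2-KO library and 8.76 FPKM (8.06 to 9.51) in the WT library, 1.24-fold higher (1.11 to 1.39). Genes of the lineages that Foxl2 marks did not follow it. Of 9 gonadotroph and thyrotroph genes, 2 reached 1 FPKM and both were at least 1.5-fold lower: the alpha subunit gene Cga at 17.04 FPKM in the Dyrk2-KO library and 55.4 FPKM in the WT library, and Gata2, a factor of these lineages, at 16.4 FPKM in the Dyrk2-KO library and 26.0 FPKM in the WT library. Foxo1, which restrains hormone genes of gonadotrophs, measured 4.55 FPKM in the Dyrk2-KO library and 5.11 FPKM in the WT library, 1.12-fold lower (1.02 to 1.24). Foxm1 measured 17.7 FPKM (16.9 to 18.5) in the Dyrk2-KO library and 16.3 FPKM (15.5 to 17.01) in the WT library, 1.09-fold higher (1.02 to 1.16). All 15 listed G2 and M phase genes, among them targets of Foxm1, lay within 1.5-fold, 12 with ratios above 1, and Top2a, a chromosome topoisomerase, measured 68.5 FPKM in the Dyrk2-KO library and 58.1 FPKM in the WT library.

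Among neural members, Foxp2, a factor of neurons, measured 4.5 FPKM (4.27 to 4.74) in the Dyrk2-KO library and 3.10 FPKM (2.91 to 3.30) in the WT library, 1.45-fold higher (1.34 to 1.57), the highest log2 ratio with 0.5 FPKM added of the 25 members. All 5 forebrain genes above the filter also had ratios above 1. Dlx1 and Emx2 among them passed through the Dyrk2-KO library alone, so they were bound to do so. The interval of the Eomes ratio, 0.783 to 1.46, included 1. The eye and forebrain regulator Pax6 measured 5.28 FPKM in the Dyrk2-KO library and 4.15 FPKM in the WT library. The summed level of the 8 forebrain genes was 10.9 FPKM in the Dyrk2-KO library and 8.26 FPKM in the WT library. The part of forebrain tissue in the value of Foxp2 was not tested. Foxb1, a gene of the caudal hypothalamus, was at 0.10 FPKM in the Dyrk2-KO library and 0.23 FPKM in the WT library, with an interval of the ratio from 0.135 to 1.18.

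Among members of epithelium and endoderm, Foxj1, the master regulator of motile cilia, was level at 2.35 FPKM (1.95 to 2.80) in the Dyrk2-KO library and 2.26 FPKM (1.87 to 2.71) in the WT library. Of 20 motile cilia genes found in the tables, 8 reached 1 FPKM, and all 8 of these had ratios below 1 with a median log2 ratio of -0.38, which was -0.18 over all 20 without the filter. Ccdc39 passed the filter through the WT library alone, so its ratio was bound to be below 1. Tekt2, a structural protein of the axoneme, was 2.09-fold lower (1.66 to 2.65) and the only one past 1.5-fold with 0.5 FPKM added. Foxe1, a factor of the pharynx and thyroid, measured 1.29 FPKM in the Dyrk2-KO library and 1.09 FPKM in the WT library, with an interval of the ratio from 0.837 to 1.70. The pioneer gene Foxa1 was 2.21-fold higher (1.08 to 4.51) on 28 fragments in the Dyrk2-KO library and 13 in the WT library. Foxa2, the factor of floor plate and endoderm, was at 0 in the Dyrk2-KO library and 0.02 FPKM in the WT library, and Foxa3 was at 0.02 FPKM in the Dyrk2-KO library and 0 in the WT library. Foxi1 and Foxi3, genes of ear and skin ectoderm, stayed at 0.08 FPKM or less. Floor plate genes were nonetheless detected, with the ligand gene Shh at 2.67 FPKM in the Dyrk2-KO library and 2.58 FPKM in the WT library.

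All 11 widely expressed members passed the filter and none differed by 1.5-fold, with log2 ratios from -0.31 to 0.14 and a median of -0.06. Foxp4, the most abundant member, measured 39.7 FPKM in the Dyrk2-KO library and 41.3 FPKM in the WT library, and the interval of its ratio included 1. Foxk2, a factor of metabolic genes, measured 27.6 FPKM in the Dyrk2-KO library and 26.8 FPKM in the WT library. Foxo4, on the X chromosome, measured 27.7 FPKM in the Dyrk2-KO library and 25.1 FPKM in the WT library, 1.11-fold higher (1.04 to 1.18), in libraries whose Xist levels differed as given above. Foxo3 was 1.08-fold lower (1.01 to 1.16), and Foxk1, Foxj3, Foxj2, Foxn2, Foxn3 and Foxo6 lay between 0.901 and 1.08 as ratios. Foxp1, which acts in heart, lung and lymphoid cells, stood furthest from equality of this group at 6.15 FPKM in the Dyrk2-KO library and 7.76 FPKM in the WT library, 1.26-fold lower (1.18 to 1.35). Of the 13 Foxo target genes above the filter 10 had ratios below 1, and Txnip, an inhibitor of glucose uptake, was the only one past 1.5-fold, at 44.1 FPKM in the Dyrk2-KO library and 67.2 FPKM in the WT library.

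The members of germ cells, blood or the early embryo were nearly silent. Foxp3, the factor of regulatory T cells, had 1 fragment in each library, and 4 of 5 T cell markers were at 0 in both. Foxr2 measured 0.34 FPKM in the Dyrk2-KO library and 0.37 FPKM in the WT library. Foxh1, a cofactor of Nodal signals, and Foxr1 had at most 2 fragments. Foxn4, a gene of retinal and spinal progenitors, had 1 fragment in each library.

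The counting interval of the ratio excluded 1 for 11 lower and 5 higher members of the 25, against 22.3% of all genes lower and 17.7% higher. With 1 library per genotype such an interval does not test whether the genotypes differ. Gene structure was a further shared property: 4 of the 5 members at least 1.5-fold lower have 1 exon only, as do 8 of the 25 above the filter. The single-exon members Foxl2, Foxd2 and Foxe1 had ratios above 1, and of 300 single-exon protein-coding genes above the filter 4.67% were at least 1.5-fold lower.

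Markers of the tissues in which the mesenchymal members act moved with them only in part. In bulk RNA, fewer cells of a type and less RNA per cell cannot be told apart. Of 20 mesenchyme markers, all above the filter, 5 passed 1.5-fold on the low side and 6 on the high side, with a median log2 ratio of -0.31. Their summed level was 412.6 FPKM in the Dyrk2-KO library and 419.7 FPKM in the WT library, while that of the 9 mesenchymal and vascular forkhead genes was 36.6% of the WT level. The frontonasal gene Alx1 measured 4.29 FPKM in the Dyrk2-KO library and 0.18 FPKM in the WT library. Six2, a progenitor factor and the most expressed of these markers, measured 182.1 FPKM in the Dyrk2-KO library and 115.2 FPKM in the WT library. It therefore weighed most on their summed level, although 12 of the 20 markers had ratios below 1 and 8 above. Tcf21 was at 0 in the Dyrk2-KO library and 1.61 FPKM in the WT library, and the collagen gene Col3a1 was 1.48-fold lower (1.44 to 1.51). Tcf21 was the one marker of this list at 0 in a library.

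Of the genes of contractile cells around vessels, 4 of 8 smooth muscle and pericyte genes above the filter were at least 1.5-fold lower. All 8 had ratios below 1, and Tagln was 3.92-fold lower (3.13 to 4.98). Cspg4 passed the filter through the WT library alone, so its ratio was bound to be below 1. Below the filter Des was 1.57-fold higher (1.03 to 2.36), while Cnn1, Myh11 and Myocd had ratios below 1. Acta2, smooth muscle actin, measured 1.58 FPKM in the Dyrk2-KO library and 25.6 FPKM in the WT library, and Notch3, a receptor of pericytes, 48.0 FPKM in the Dyrk2-KO library and 48.1 FPKM in the WT library. The 13 genes of this list summed to 76.2 FPKM in the Dyrk2-KO library and 123.3 FPKM in the WT library, with Higd1b at 0 in both. Notch3, which was nearly level, gave the largest part of both sums. Endothelial markers, at 169.2 FPKM in the Dyrk2-KO library and 152.7 FPKM in the WT library over 15 genes, had none past 1.5-fold with 0.5 FPKM added, and 4 of the 15 had ratios below 1. Plvap was 1.32-fold higher (1.22 to 1.43), and Sox17, a factor of arterial endothelium, was 1.67-fold lower (1.29 to 2.17) as a plain ratio, at 1.02 FPKM in the Dyrk2-KO library and 1.70 FPKM in the WT library. Cartilage genes had a median log2 ratio of -0.22 over 5 above the filter, with Matn4 at 0.18 FPKM in the Dyrk2-KO library and 3.30 FPKM in the WT library. Among pharyngeal genes Pax1, of pouch endoderm and vertebral mesenchyme, was at 0 in the Dyrk2-KO library and 4.32 FPKM in the WT library, at least 130.1-fold lower against a floor of 3 fragments, where the lower limit of its counting interval is 105.3-fold. Epcam, a general epithelial marker, measured 193.2 FPKM in the Dyrk2-KO library and 194.5 FPKM in the WT library. The part of any of these tissues in the values of the forkhead genes was not tested.

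**Figure D4:**
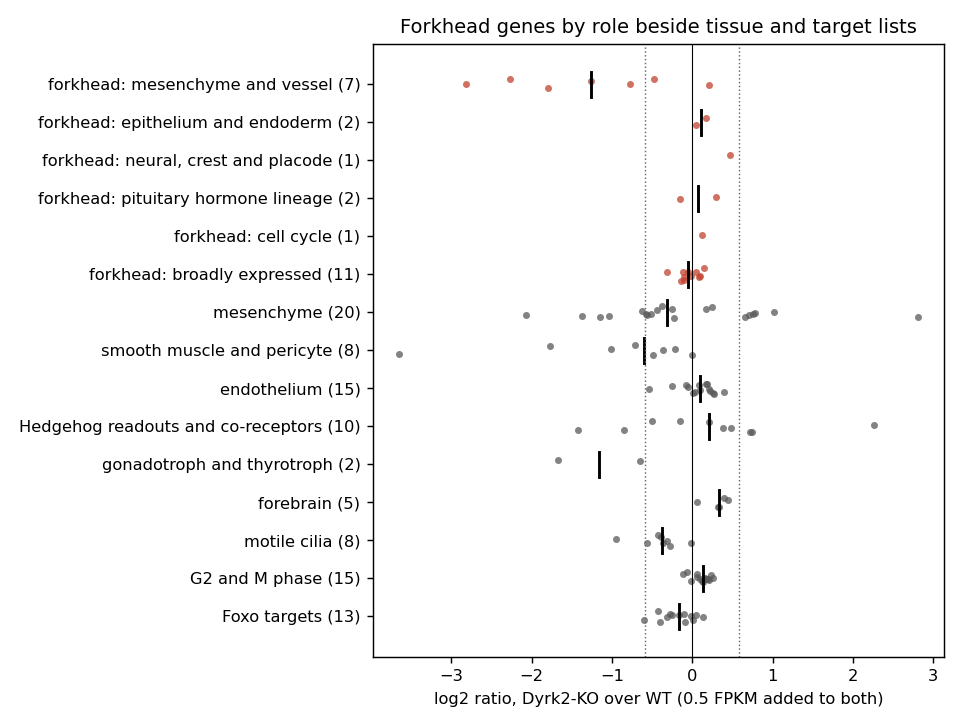
Log2 ratio of Dyrk2-KO over WT, with 0.5 FPKM added to both, of 24 of the 25 forkhead genes above the filter by role (red) and of genes in 9 tissue and target lists (grey); numbers in brackets count the points, short vertical lines mark medians of the whole lists, where 2 or more points are drawn, and dotted lines 1.5-fold. The mesenchymal and vascular forkhead genes spread from -2.81 to 0.21, and the widely expressed ones stay between -0.31 and 0.14.

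Readouts of Hedgehog signalling, the pathway that induces several of these forkhead genes in other mesenchyme, were set beside them. Hhip, an antagonist induced by the pathway, was 3.48-fold lower (2.95 to 4.10) and Gli1, the transcription factor induced by it, 1.83-fold lower (1.72 to 1.95). Foxl1, Foxf2 and Foxd1 were further from equality than Gli1, with intervals that do not overlap that of Gli1. The interval of Hhip overlapped those of Foxd1 and Foxc2 and lay below those of Foxl1 and Foxf2. Whether these forkhead genes moved with the pathway was not tested. Boc and Gas1, co-receptors that the pathway represses in several tissues, were 1.82-fold higher (1.53 to 2.18) and 1.66-fold higher (1.52 to 1.81). Ccnd1, a cyclin gene induced by the pathway in many cells, went the other way from Gli1, at 163.3 FPKM in the Dyrk2-KO library and 116.5 FPKM in the WT library, 1.40-fold higher (1.37 to 1.44), and Bcl2, a survival gene, was 1.16-fold higher (1.09 to 1.24). Over the whole list, 3 of 11 genes above the filter passed 1.5-fold on the low side and 3 on the high side, one of them Osr2 at 2.77 FPKM in the Dyrk2-KO library and 0.18 FPKM in the WT library. That list mixes induced and repressed genes, and holds the enzyme gene Cdo1, which is no known readout of the pathway.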

How the data were processed

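Polyadenylated RNA was sequenced from stranded libraries, per the labels' protocols. The submitters' processing notes list cutadapt 1.9.1, HISAT2 2.0.1 and GRCm38; no counting tool or annotation release is named. The authors deposited FPKM to 2 decimals with each gene's exon length, per the file headers. FPKM are relative to all counted fragments, so abundant transcripts shift every other gene.

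Symbols and coordinates came from GENCODE M21 by gene ID (55141 of 55401 matched). Exon lengths equalled the merged M21 exons for 43 of 44 members. Fragments were recovered from the steps of FPKM times exon length (all 1372 values checked in the Dyrk2-KO library and all 1512 in the WT library were whole within 0.1 fragment). They gave exact 95% Poisson intervals of levels and exact conditional 95% Clopper-Pearson intervals of ratios, computed with scipy 1.17.1. For members above the filter, rounding moved a count by at most 1.64 fragments.

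Genes of at least 1 FPKM in either library were kept, and fold thresholds used 0.5 FPKM added to both. Every member is named or counted, and the values of 2 genes are not reported here; from each of 19 lists came the 2 most expressed and 2 furthest genes, and those used here are named, with Gli1, Bcl2, Boc and Gas1 added after their values were seen. Genes named within 150 kb of a clustered member or starting within 1 kb of a member on the other strand follow position. Members, roles and lists were chosen with earlier results of these data known. The steps were tested on simulated data.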

Additional observations from a re-analysis of the deposited data

How the results depend on the processing

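No paired analysis was possible because each genotype had 1 library, and for the same reason no replicate could be left out. Across 8 alternatives (7 planned, and 1, genes of at least 200 exon bases, chosen after seeing the data) 4 to 6 forkhead genes were at least 1.5-fold lower, 4 or 5 at least 2-fold lower and none at least 1.5-fold higher. The mesenchymal and vascular median log2 ratio, -1.26, ranged between -1.79 and -0.78. Foxs1 dropped out of the lower genes with 2 FPKM added or a filter of 5 FPKM, and reached 2-fold with 0.1 FPKM added. The share of all genes at least 1.5-fold lower or higher, 4.56% and 2.06%, became 2.15% and 0.943% with 2 FPKM added, 2.15% and 1.12% without a filter, and 1.97% and 0.664% with a filter of 5 FPKM. The 3 other scalings multiplied the Dyrk2-KO library by 0.998 to 1.02 and turned no member past 1.5-fold. With a filter of 5 FPKM the median log2 ratio of the Hedgehog list was 0.02 against 0.21, that of neural crest and Schwann genes 0.06 against -0.16, and that of neuronal genes -0.14 against 0.28. Without the filter the median of motile cilia genes was -0.18 against -0.38, and that of floor plate genes -0.35 against -0.60. The cause was not tested. Depth limits the members under the filter, for which few fragments leave wide intervals.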

Other observations

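Pituitary progenitor genes had a median log2 ratio of -0.15 over 10, with Lhx4, a pouch determinant, 1.56-fold lower (1.41 to 1.73). Hypothalamic and infundibular genes had a median of -0.07 over 8, with Bmp4, an infundibular signal, at 10.5 FPKM in the Dyrk2-KO library and 6.50 FPKM in the WT library. Oral and pharyngeal epithelium had a median of -0.12 over 8, with Tbx1, a pharyngeal regulator, 3.67-fold lower (2.82 to 4.89). The median was -0.11 over 6 macrophage genes and -0.37 over 6 erythroid genes, with the globin gene Hbb-y at 1285 FPKM in the Dyrk2-KO library and 1675 FPKM in the WT library. Floor plate genes had a median of -0.60 over 3, which was -0.35 over all 6 without the filter and -0.42 with 2 FPKM added; Ntn1, a guidance cue, was 2.67-fold lower (2.24 to 3.19). Pax1 and Tcf21, at 0 in the Dyrk2-KO library, already had the lowest log2 ratios above the filter in their lists. Setting them to their bound of 3 fragments therefore could not change the medians.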
